A study of Schizosaccharomyces pombe with 6 samples.

Results

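Antisense long non-coding RNAs of fission yeast (Schizosaccharomyces pombe) were read in a strain without duf89 and in a wild-type (WT) strain. They were chosen as the features whose identifier starts with SPNCRNA and whose product text in the authors' deposited table contains the word antisense, which gave 694 of 6986 features. The deletion group was strain AS2300 (genotype h- duf89delta::hygR, in which a hygromycin resistance marker stands in place of duf89), and the WT group was strain JS 77. Each group had 3 libraries from log phase cultures in rich YES medium at 30 ºC, made from polyadenylated RNA with a stranded kit. The deletion is 1 strain. The labels call its replicates biological, whereas the WT replicates are only numbered, so p-values measure the spread between these libraries, which may be technical. Per the series text, the WT data were first released in another dataset, though both groups were sequenced together. Duf89, annotated as a metal-dependent phosphatase, had 229, 234 and 373 counts at its own locus in the deletion libraries, against 808, 897 and 794 in the WT libraries.

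An antisense RNA is transcribed from the strand opposite a gene, so that its sequence is complementary to that of the gene's mRNA. In fission yeast many such RNAs are kept low by the nuclear exosome, by RNA interference and by chromatin that restrains initiation within genes, and many arise at genes of meiosis or of the stress response. Polymerases that meet head-on, or antisense RNA that alters chromatin over a promoter, can lower the sense gene, while other antisense RNAs are transcribed with no known effect on it.

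The antisense RNAs had a median length of 1465.5 bases (206 to 5317) in the 680 members that matched the RefSeq annotation of assembly ASM294v3. By that annotation 316 lie on chromosome I, 245 on chromosome II and 119 on chromosome III. A name of the form X-antisense-n was given to 635 of them, and for 619 the gene X was found in the table, 399 by common name and 220 by systematic identifier. For 16 the gene X was not matched, and the other 59 carry names of another form. Of 605 named pairs with both partners in RefSeq, 595 overlap there on opposite strands. A remark that the RNA is possibly an alternative UTR stands on 102 members.

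Members of the set were weakly expressed. The libraries held between 18244492 and 21572536 counts, of which antisense RNAs took 0.551, 0.579 and 0.585% in the deletion libraries, against 0.675, 0.603 and 0.626% in the WT libraries. A level minimum, set by edgeR at a minimum count of 10, left 596 members to be tested and 98 untested, of which 16 had no count in any library. The median of the tested members was 92.7 counts per library, and their means ran from 7.17 to 4726. Of the tested members, 34 passed the minimum in all 3 WT libraries but not in all 3 deletion libraries, and only 3 did the reverse. More members were thus tested through their WT level than through their deletion level. Of the 34, 8 passed it in no deletion library, and 0 members passed it in all 3 deletion libraries and in no WT library. With no such minimum, 54 members were called higher and 193 lower in the deletion by the test given below. The median log2 fold change was then -0.32 over all members fitted. Over all 6594 features of that fit, 1762 were higher and 1415 lower, at a median of -0.0028.

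One WT library stood apart at the low end. Among 239 pairs whose sense gene had at least 50 CPM (read counts scaled to the library size after TMM adjustment), the antisense level per length as a share of the sense level had a 1st percentile of 0.0207, 0.0613 and 0.0297% in the deletion libraries, against 0.339, 0.0190 and 0.0433% in the WT libraries. WT replicate 1 was thus highest, and its median ratio was highest too, the medians being 3.04, 2.90 and 3.24% in the deletion libraries, against 5.55, 4.05 and 4.13% in the WT libraries. What part the higher ratios of this library have in single results was not tested, and values without it are given beside the results that moved most.

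**Figure D1:**
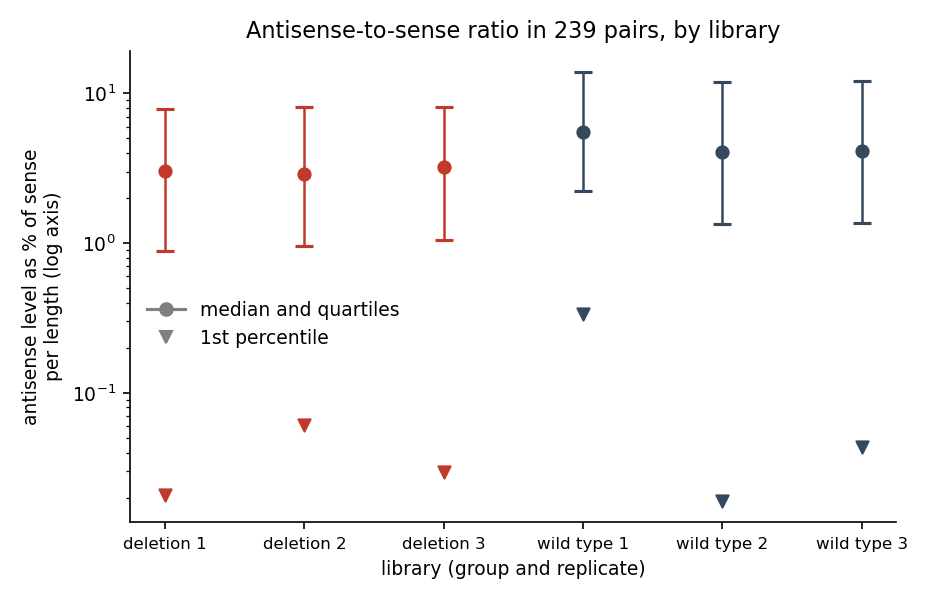
Antisense level as a percentage of the sense level per length (y axis, log scale) in 239 named pairs with a sense level of at least 50 CPM, by library (x axis), with the median, quartiles and 1st percentile. The 1st percentile is 0.339% in WT replicate 1 and at most 0.0613% in the other libraries, and the 3 deletion medians (2.90 to 3.24%) lie below the 3 WT medians (4.05 to 5.55%).

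Antisense RNAs fell more often than they rose in the deletion. By edgeR's quasi-likelihood test, with p-values adjusted by Benjamini-Hochberg over all 6045 tested features and calls at an adjusted p below 0.05, 191 of 596 were lower (32.0%) and 54 were higher (9.06%) in the deletion. Over all features, 24.6% were called lower and 28.8% higher, and 53.3% were called in either direction. The median log2 fold change (deletion over WT) of the tested antisense RNAs was -0.26, with quartiles of -0.70 and 0.07, against 0.00 for all features. The libraries of the groups did not overlap for 185 of the 191 falls and 53 of the 54 rises. Called or not, 225 of the 596 members were lower and 79 higher without overlap, where over all features the shares were 30.4% lower, 32.9% higher and 63.3% in either direction. Falls of at least 2-fold numbered 64 of the 150 found over all features, where such falls make up 2.48% of features tested, and rises of at least 2-fold numbered 3 of 34, which make up 0.562%. The count of large falls rested on weakly expressed members and on WT replicate 1: it was 29 among members averaging 50 counts or more, 8 of 37 over all features with a minimum of 10 CPM in 3 libraries, and 46 of 132 without WT replicate 1. Without WT replicate 1, 151 antisense RNAs were lower and 50 higher in the deletion, at a median log2 fold change of -0.18, and over all features 21.1% were lower and 25.3% higher. Both fits share 147 of the falls and 40 of the rises. Scaled to total counts instead of TMM, 163 were lower and 61 higher, beside 1050 and 2073 over all features. In bulk cultures, fewer cells that make an RNA and less of it per cell cannot be told apart.

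**Figure D2:**
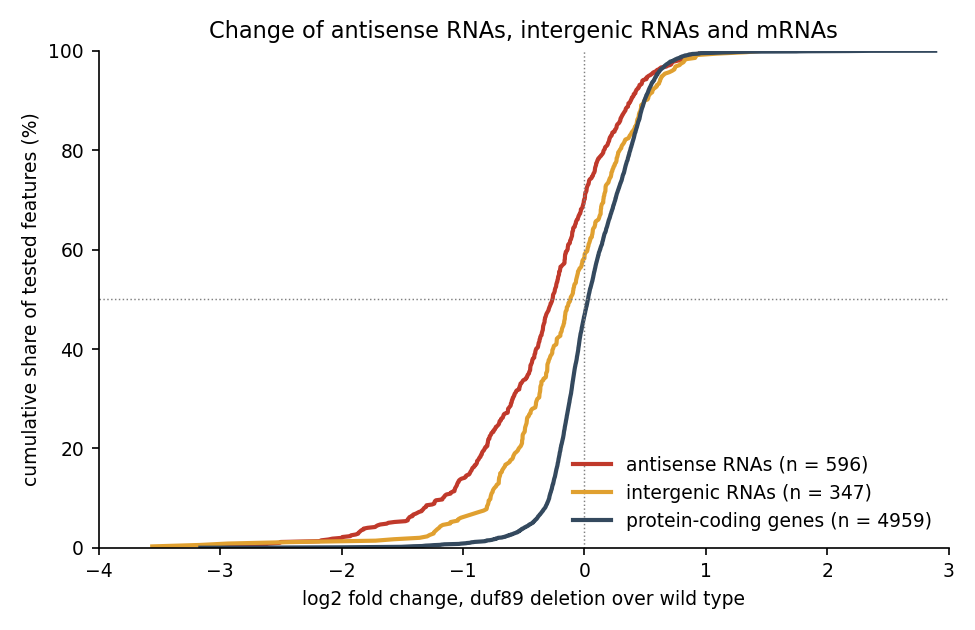
Cumulative share of tested features (y axis, percent) against the log2 fold change, deletion over WT (x axis), for antisense RNAs, intergenic RNAs and protein-coding genes. The antisense curve lies left of the others over most of its length and crosses the 50% line at -0.26, against -0.11 for intergenic RNAs and 0.03 for protein-coding genes.

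The other non-coding RNAs, which are neither antisense nor intergenic, had a similar median log2 fold change of -0.24. Of these 72, 16 were lower (22.2%) and 2 higher (2.78%). Intergenic non-coding RNAs had a median log2 fold change of -0.11, with 73 of 347 lower (21.0%) and 29 higher (8.36%). Protein-coding genes had a median of 0.03, with 1184 of 4959 lower (23.9%) and 1646 higher (33.2%). Over all features 24.6% were called lower and 28.8% higher. The shift of the antisense RNAs was present on each chromosome, with medians of -0.30, -0.26 and -0.21 on chromosomes I, II and III. It was also present among the 94 tested members with the alternative UTR remark (median -0.37, 32 lower and 8 higher). The 502 without the remark had a median of -0.24, with 159 lower and 46 higher. Of the antisense RNAs named below, those at SPAC22A12.14c, SPAC11D3.18c, end4, rhp16, atg12 and rev1 carry the remark. In RefSeq, 69 tested members overlap a protein-coding gene on their own strand (median -0.34, 22 lower and 4 higher). The other 527 had a median of -0.25, with 169 lower and 50 higher. Whether reads of such a gene were counted for the antisense RNA was not tested.

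Level moved with the change. Antisense RNAs under 2 CPM had a median log2 fold change of -0.59, and those from 2 to 4, 4 to 8, 8 to 16 and above 16 CPM had medians of -0.34, -0.20, -0.12 and -0.14. Protein-coding genes of the same levels had medians of -0.27, -0.02, 0.16, 0.29 and 0.02. In each range the antisense RNAs therefore lay below the protein-coding genes, and the share called lower was 30.9, 27.8, 30.8, 30.2 and 42.6% of antisense RNAs, beside 15.7, 17.8, 13.0, 8.64 and 25.3% of protein-coding genes. At 8 to 16 CPM the share called lower was 35.4% of intergenic RNAs, above that of antisense RNAs, at a median of -0.10. The few other non-coding RNAs at 4 to 8 CPM (n = 6) and 8 to 16 CPM (n = 4) had medians of -0.61 and -0.28, below the antisense medians. Differences between classes were not tested. All these values are from the fit of all 6 libraries, and the ranges were not read without WT replicate 1. Of the tested members, 34 passed the level minimum in all 3 WT but not all 3 deletion libraries, and 3 did the reverse. What part this has in the median and calls of the lowest range was not tested.

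The largest falls included antisense RNAs of genes of RNA processing, chromatin and membrane traffic. hrp1-antisense-1 (SPNCRNA.803) lies opposite hrp1, a chromatin remodeller of the CHD1 type. It had 75, 54 and 60 counts in the deletion libraries, against 211, 221 and 171 in the WT libraries. All 3 deletion libraries lay below all 3 WT libraries. The fall was 3.57-fold (log2 -1.84 ± 0.17 SE, adjusted p = 5.77e-05), and hrp1 mRNA rose by 0.47 ± 0.07 (adjusted p = 0.000704).

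prp22-antisense-1 (SPNCRNA.724), opposite the helicase that releases spliced mRNA from the spliceosome, had 227, 248 and 226 counts in the deletion libraries, against 542, 626 and 506 in the WT libraries. The groups were far apart, and the log2 fold change was -1.42 ± 0.11 (adjusted p = 1.54e-05). prp22 itself had 1853, 1813 and 2090 counts in the deletion libraries, against 978, 1268 and 1261 in the WT libraries, which was a rise of 0.56 ± 0.09 on the log2 scale (adjusted p = 0.0011).

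osh3-antisense-1 (SPNCRNA.747) lies opposite a gene for sterol transfer between membranes. Its counts were 47, 29 and 55 in the deletion libraries, against 122, 178 and 147 in the WT libraries. The groups did not overlap, at a log2 fold change of -1.93 ± 0.23 (adjusted p = 0.000258), and osh3 rose by 0.61 ± 0.08. The antisense RNA of end4, which encodes a homolog of the Huntingtin-interacting protein, had 219, 166 and 194 counts in the deletion libraries, against 367, 519 and 415 in the WT libraries, with no overlap (log2 fold change -1.33 ± 0.13). Its sense gene rose by 0.32 ± 0.05. The antisense RNA named for SPAC57A7.06, which is utp14 of the U3 small nucleolar RNP, fell by 1.42 on the log2 scale while utp14 rose by 0.47.

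In fus1 and SPCC18.03 a falling antisense RNA faced a sense gene that was not called. fus1-antisense-1, opposite the formin of mating cells, had 159, 140 and 124 counts in the deletion libraries, against 336, 347 and 288 in the WT libraries, without overlap (log2 fold change -1.36 ± 0.13, adjusted p = 6.29e-05). Its partner fus1 was at a log2 fold change of 0.26 (adjusted p = 0.108). SPCC18.03-antisense-1, opposite a predicted transcriptional repressor, was at -1.45 ± 0.20, and its sense gene was at -0.14 (adjusted p = 0.0614). fus1 was called higher without WT replicate 3 (0.39, adjusted p = 0.0160), and SPCC18.03 lower with cyclic loess (-0.19, adjusted p = 0.0167) and with DESeq2 size factors (adjusted p = 0.0482). In the edgeR fit with the replicate number as a block, fus1 was called higher (0.26, adjusted p = 0.0318) and SPCC18.03 lower (-0.14, adjusted p = 0.0339).

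For ubc4-antisense-1 and SPNCRNA.1491 the size of the fall rested in part on WT replicate 1. ubc4-antisense-1, opposite a ubiquitin-conjugating enzyme, had 39, 62 and 69 counts in the deletion libraries, against 304, 139 and 158 in the WT libraries. Per length this antisense RNA stood at 0.128% of the sense level in the deletion and 0.386% in WT. The 1st percentile of that ratio over 239 pairs was 0.339% in WT replicate 1. The groups did not overlap, but WT replicate 1 was about as high as the other WT libraries together. The log2 fold change was -1.99 ± 0.35, and -1.52 without that library (adjusted p = 0.00162 and 0.000805), and ubc4 was lower as well, at -0.42 ± 0.05. SPNCRNA.1491 had 30, 34 and 33 counts in the deletion libraries, against 165, 70 and 78 in the WT libraries (log2 fold change -1.86, and -1.33 without WT replicate 1). The gene on the other strand in RefSeq, pwp1 for a WD repeat protein, was not called (0.10, adjusted p = 0.12).

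**Figure D3:**
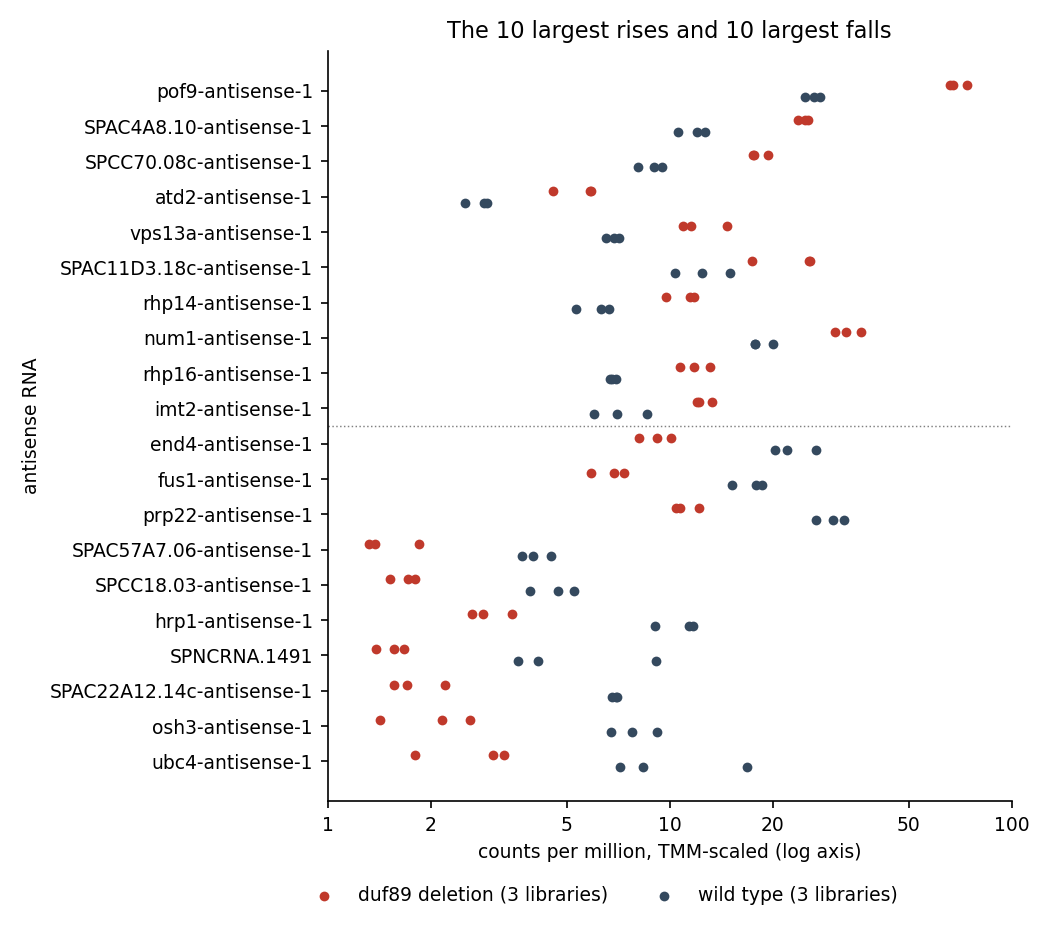
Level in CPM (x axis, log scale) of the 10 antisense RNAs with the largest rises and the 10 with the largest falls (y axis, separated by the dotted line), by library, with 3 deletion and 3 WT libraries each. The groups do not overlap for any of the 20, as the rule that chose them required, and the farthest WT point from its group is WT replicate 1 for ubc4-antisense-1 and SPNCRNA.1491.

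Rises were fewer and were led by an antisense RNA at pof9, which encodes an F-box protein of ubiquitin ligases. pof9-antisense-1 (SPNCRNA.1471) had 1436, 1375 and 1559 counts in the deletion libraries, against 451, 512 and 521 in the WT libraries. Every deletion library had more than 2 times the count of every WT library, and the fold was 2.63 (log2 1.40 ± 0.07, adjusted p = 1.81e-06). The sense gene pof9 had 1123, 979 and 922 counts in the deletion libraries, against 791, 873 and 903 in the WT libraries, and was not called (log2 fold change 0.07, adjusted p = 0.454). Per length the antisense RNA stood at 99.3% of the sense level in the deletion and 39.4% in WT, as means of 3 libraries.

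SPAC4A8.10-antisense-1 (SPNCRNA.839), opposite the predicted acylglycerol lipase gene rog1, had 539, 516 and 499 counts in the deletion libraries, against 218, 206 and 240 in the WT libraries. The groups were separate (log2 fold change 1.06 ± 0.10, adjusted p = 5.54e-05), and rog1 was slightly lower, at -0.25 ± 0.05. rhp16-antisense-1 and atd2-antisense-1, at genes for a nucleotide excision repair helicase and an aldehyde dehydrogenase, rose by 0.80 ± 0.12 and 0.97 ± 0.18 on the log2 scale, while their sense genes, at -0.07 and 0.03, were not called. With cyclic loess rhp16 was called lower (-0.24, adjusted p = 0.0151). vps13a-antisense-1 rose by 0.86 ± 0.14, and the gene on the other strand in RefSeq, vps1301 for a chorein homolog, rose by 0.24 ± 0.08. A further member opposite vps1301, vps13a-antisense-2 (named after its value was seen), had a log2 fold change of 0.49 ± 0.17 (adjusted p = 0.0366).

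The most abundant antisense RNAs moved in both directions. SPNCRNA.1626 had 2713, 3655 and 3515 counts in the deletion libraries, against 6401, 6076 and 5997 in the WT libraries. It is the member with the highest level, it was separate between groups, and its log2 fold change was -1.06 ± 0.11 (adjusted p = 0.000145). The gene opposite it in RefSeq, mbx2 for a MADS-box transcription factor, had 1283, 1041 and 885 counts in the deletion libraries, against 492, 547 and 435 in the WT libraries, a rise of 0.96 ± 0.13 (adjusted p = 0.000467).

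SPNCRNA.979 fell together with the gene opposite it in RefSeq. It had 1792, 1759 and 1627 counts in the deletion libraries, against 2615, 2825 and 2701 in the WT libraries. The replicates were tight and the groups separate, at a log2 fold change of -0.81 ± 0.05 (adjusted p = 6.83e-06), and gpd2, for a glycerol-3-phosphate dehydrogenase, fell by 0.58 on the log2 scale. gnr1-antisense-1, at a gene for a G protein beta subunit, fell by 0.35 on the log2 scale and gnr1 rose by 0.70 ± 0.17, and per length the antisense RNA was above the mRNA in both groups.

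At spo4 and SPAC56F8.12 almost all counts were antisense. spo4-antisense-1, opposite a kinase gene of meiosis, had 2827, 2861 and 2475 counts in the deletion libraries, against 2801, 2833 and 2805 in the WT libraries. These raw counts overlap, whereas the scaled levels do not, and the log2 fold change was -0.21 (adjusted p = 0.0215). That call was lost with total counts (adjusted p = 0.0860) and without deletion replicate 1 (0.0888) or 3 (0.0999) or WT replicate 1 (0.0562) or 2 (0.0511). spo4 had 0, 3 and 2 counts in the deletion libraries, against 21, 0 and 1 in the WT libraries, so WT replicate 1 held most of its counts and it was not tested. SPAC56F8.12-antisense-1 rose by 0.72 ± 0.11, with 2311, 1702 and 1833 counts in the deletion libraries, against 900, 1218 and 1055 in the WT libraries. Its sense gene, for a predicted membrane protein, had at most 12 counts in a deletion library and at most 32 in a WT library, in WT replicate 1.

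Sense and antisense partners were read together in 520 tested pairs (519 sense genes). Both partners were called in 145, and in 116 of these (80.0%) they moved in opposite directions, mostly with a lower antisense RNA and a higher sense gene (106 pairs, against 10 of the reverse). In the other 29 pairs both were higher (12) or both lower (17). The sense genes as a whole were shifted upward, with 244 of 520 (46.9%) higher and 79 lower. Their median log2 fold change was 0.19. Over all features 28.8% were called higher, and among protein-coding genes 33.2%. With cyclic loess scaling 178 of 520 sense genes (34.2%) were higher and 89 lower, at a median of 0.08. That scaling gave 1317 higher and 1442 lower over all 6045 features. The shifts of the classes by themselves favour opposite pairs.

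The share of higher sense genes differed with the call of the antisense RNA. Of 161 pairs with a lower antisense RNA, 106 sense genes were higher (65.8%) and 17 lower, at a median of 0.37. Of 47 pairs with a higher antisense RNA, 12 sense genes were higher (25.5%) and 10 lower, at a median of -0.05. Pairs whose antisense RNA was not called lay between, with 126 of 312 sense genes higher (40.4%) and a median of 0.12. As a description across pairs, which share libraries and scaling, the antisense and sense log2 fold changes had a Pearson r of -0.13 and a Spearman rho of -0.18 (n = 520). Without WT replicate 1 the opposite pairs numbered 94 and the same-direction pairs 17. Leaving out deletion replicate 1 or 3 also lowered the count of same-direction pairs, to 17 and 18. With cyclic loess the opposite pairs numbered 94 and the same-direction pairs 21, at a rho of -0.29. Sense genes were then higher in 47.6% of 166 pairs with a lower antisense RNA. The shares were 13.9% of 36 pairs with a higher antisense RNA and 29.6% of 318 pairs with none called.

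**Figure D4:**
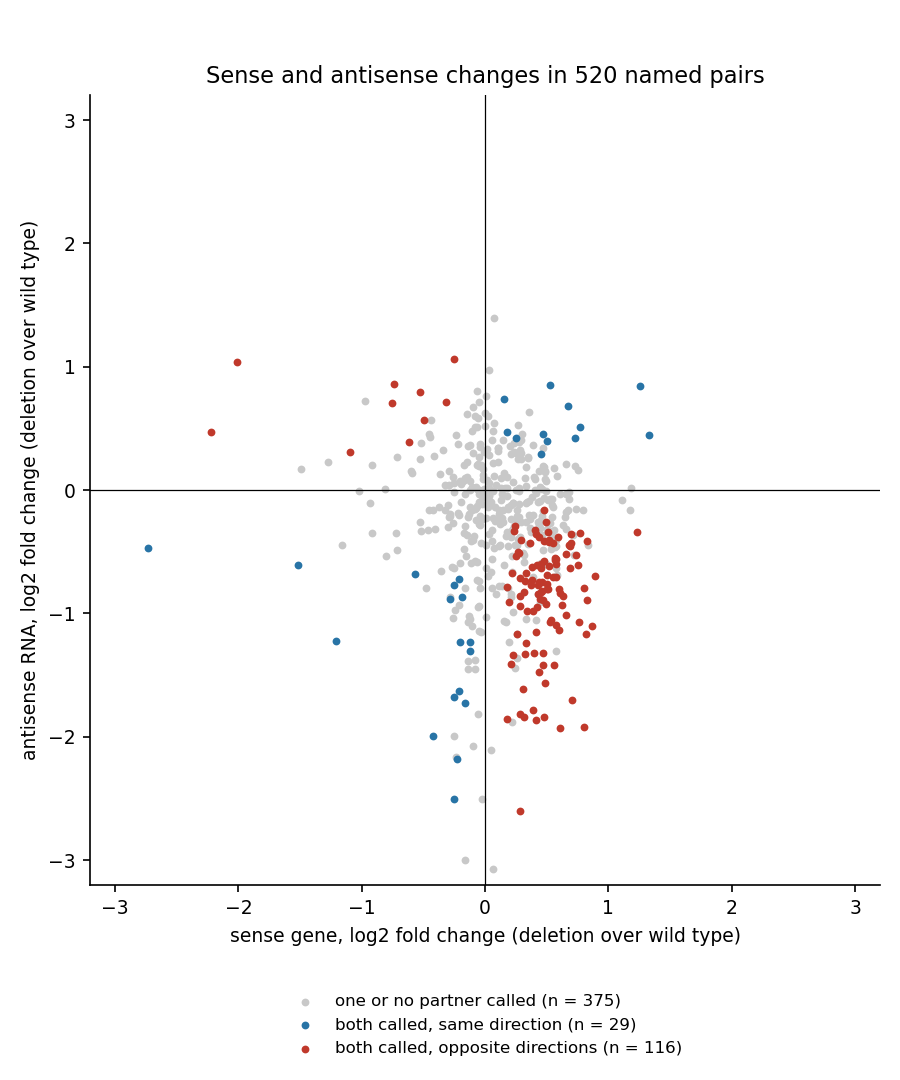
Log2 fold change (deletion over WT) of the antisense RNA (y axis) against that of its sense gene (x axis) in 520 named pairs, 1 point per pair. Pairs with both partners called in opposite directions (116) lie mostly at the lower right, where the antisense RNA is lower and the sense gene higher, and 29 pairs moved in the same direction.

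Pairs in opposite directions were ranked by the smaller of their log2 fold changes, and the first of them was at a predicted methyltransferase gene. SPCC70.08c-antisense-1 (SPNCRNA.1292) had 383, 357 and 408 counts in the deletion libraries, against 163, 157 and 180 in the WT libraries. SPCC70.08c had 400, 430 and 407 counts in the deletion libraries, against 1356, 1459 and 1651 in the WT libraries. Each strand was separate between groups, with log2 fold changes of 1.03 ± 0.11 (antisense, adjusted p = 0.000116) and -2.01 ± 0.09 (sense, adjusted p = 5.27e-07). Per length, the antisense RNA stood at 60.4% of the sense level in the deletion and 7.29% in WT. This was the uncommon direction, shared by 9 other pairs, among them SPAC11D3.18c for a carboxylic acid transporter (antisense 0.86, sense -0.74) and imt2 for a mannosyltransferase (antisense 0.79, sense -0.53).

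Splicing factor genes were found among the pairs of the common direction. cwf19-antisense-1 (SPNCRNA.712), opposite a gene for a spliceosome-associated protein, had 727, 671 and 664 counts in the deletion libraries, against 1309, 1386 and 1431 in the WT libraries. cwf19 had 1340, 1184 and 1440 counts in the deletion libraries, against 587, 681 and 741 in the WT libraries. Both strands were separate between groups (antisense -1.16 ± 0.06, adjusted p = 1.91e-06; sense 0.82 ± 0.09, adjusted p = 0.000164), and per length the antisense RNA was at 49.2% of the sense level in the deletion and 194% in WT. At SPCC162.01c, which is snp27 of the U4/U6 x U5 tri-snRNP, the antisense RNA fell by 0.79 on the log2 scale and the sense gene rose by 0.80 ± 0.11.

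Similar pairs stood at slx4, mfs1 and SPAC22A12.14c. slx4-antisense-1, at the gene for a structure-specific endonuclease subunit, had 143, 143 and 120 counts in the deletion libraries, against 238, 273 and 269 in the WT libraries, and fell by 1.10 on the log2 scale while slx4 rose by 0.87 ± 0.16. mfs1-antisense-1, at the gene for a predicted spermidine transporter, fell by 0.89 while mfs1 rose by 0.83 ± 0.08. SPAC22A12.14c-antisense-1, at a gene for a BSD domain protein, had 37, 45 and 33 counts in the deletion libraries, against 123, 135 and 133 in the WT libraries. It fell by 1.92 on the log2 scale while the sense gene rose by 0.80 ± 0.11. No library of either strand overlapped between groups. This antisense RNA carries the remark that it is possibly an alternative UTR.

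**Figure D5:**
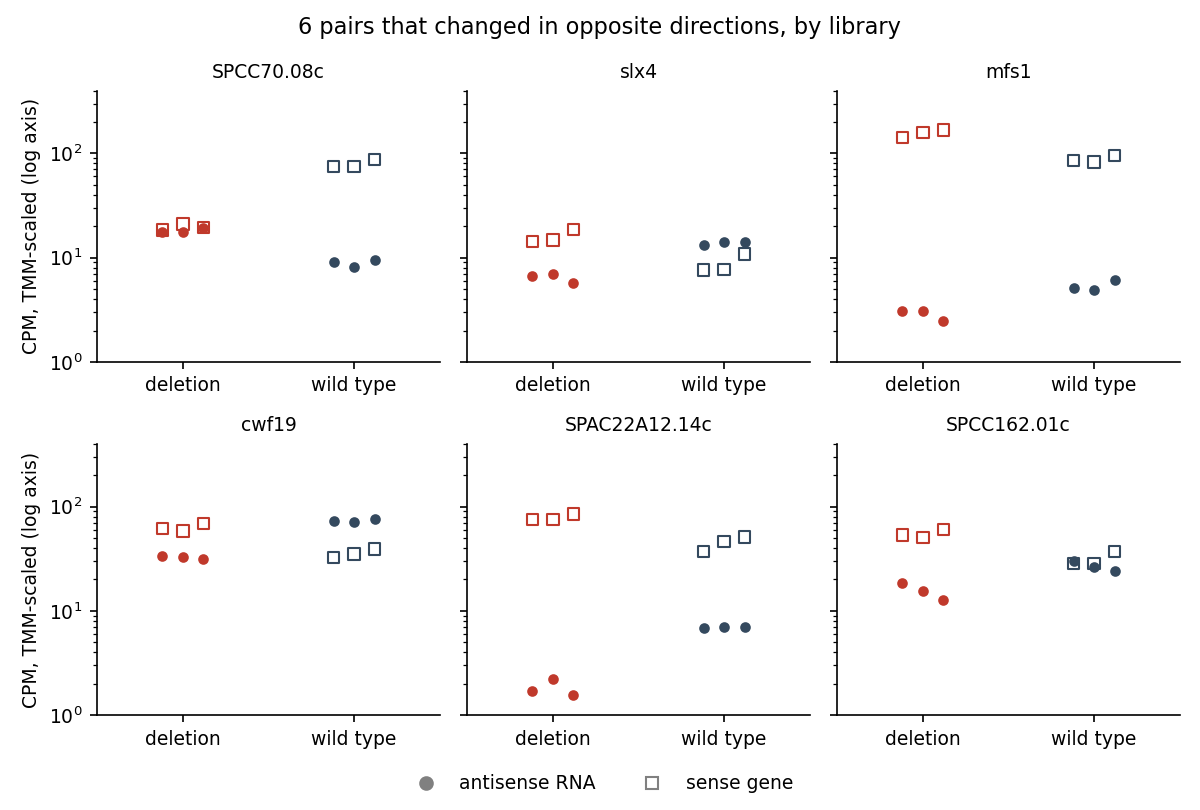
Level in CPM (y axis, log scale) of the antisense RNA (filled circles) and the sense gene (open squares) in the deletion and WT libraries (x axis) for 6 named pairs called in opposite directions, chosen by the size of the smaller of their log2 fold changes. In SPCC70.08c the antisense RNA is higher and the sense gene lower in the deletion, and in the other 5 pairs the reverse holds, with no overlap between the groups on either strand.

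Pairs that moved in the same direction included genes of meiosis and DNA repair. num1-antisense-1 (SPNCRNA.1397), opposite the gene for a cortical anchor of dynein in meiotic nuclear movement, had 660, 737 and 691 counts in the deletion libraries, against 362, 345 and 335 in the WT libraries. num1 had 95, 102 and 140 counts in the deletion libraries, against 38, 42 and 46 in the WT libraries. Both strands rose without overlap (antisense 0.84 ± 0.10, adjusted p = 0.000203; sense 1.26 ± 0.21, adjusted p = 0.00124).

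rhp14-antisense-1, at the homolog of the XPA gene of nucleotide excision repair, rose by 0.85 ± 0.14 and rhp14 by 0.53 ± 0.15. The call of rhp14 was lost with cyclic loess (log2 fold change 0.28, adjusted p = 0.0668) and without WT replicate 2 (adjusted p = 0.0508). rev1, for a deoxycytidyl transferase of translesion synthesis, rose by 0.47 ± 0.09 and rev1-antisense-1 by 0.45 ± 0.11, a call lost with cyclic loess (0.27, adjusted p = 0.0683). At atg12 (an autophagy modifier) and rec11 (a meiotic cohesin subunit) both strands were higher, with antisense changes of 0.68 and 0.51 (adjusted p = 0.0205 and 0.0321). The call of atg12-antisense-1 was lost without deletion replicate 1 (0.0512), deletion replicate 3 (0.0688) or WT replicate 1 (0.0546). That of rec11-antisense-1 was lost without deletion replicate 1 (0.0754) or 3 (0.0821), WT replicate 1 (0.0784) or 3 (0.0996), and with DESeq2 (0.0980). SPBC1271.08c-antisense-1, at a gene found only in fission yeast, had 75, 75 and 80 counts in the deletion libraries, against 135, 169 and 177 in the WT libraries. It fell by 1.22 on the log2 scale and SPBC1271.08c by 1.21, so that the ratio per length was alike, at 15.0% of the sense level in the deletion and 15.1% in WT.

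The antisense-to-sense ratio per length had a median of 11.7% over the 520 pairs (quartiles 3.68 and 46.2%), and the antisense RNA was above its sense gene in 80 pairs. Members below 1% of the sense level (n = 46) had a median log2 fold change of -1.005, and those from 1 to 10% (n = 191), from 10 to 100% (n = 203) and above 100% (n = 80) had medians of -0.34, -0.20 and -0.05. Without WT replicate 1 the medians in these ranges were -0.22, -0.23, -0.20 and -0.06, so the lowest range no longer stood apart. In the 283 pairs at 10% or more 70 pairs moved in opposite and 16 in the same direction, with a rho of -0.34. In the 237 pairs under 10% these were 46 and 13, with a rho of -0.07, and -0.24 without WT replicate 1. No source used here gives the strand setting of the counting, so reads of a gene and of its antisense RNA may not be wholly told apart.

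The position of the nearest upstream gene on the same strand was also read. For 106 tested members whose nearest upstream gene on the same strand ends within 500 bases, 24 were lower and 13 higher, at a median of -0.19, and the antisense change had a rho of 0.20 with the change of that gene. Of 155 members 500 to 2000 bases away, 51 were lower and 15 higher (median -0.26, rho -0.02), and of 318 farther away, 108 were lower and 22 higher (median -0.28, rho -0.03). The difference between these ranges was not tested, and over all features 24.6% were called lower and 28.8% higher. Among pairs joined by name, mug135, of a family with repeated copies, was the single sense gene with more than 1 tested antisense RNA: SPCC330.04c-antisense-1 was at -0.07 (not called) and mug135-antisense-1 fell by 0.45 on the log2 scale (adjusted p = 0.0368), while mug135 rose by 0.68 ± 0.13. The call of mug135-antisense-1 was lost whichever library was left out (adjusted p from 0.0642 to 0.150) and with DESeq2 (0.0836), cyclic loess (0.0647) or total counts (0.0738). No member is named for pho1, pho84, tgp1, ecl3 or duf89.

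Genes that act on antisense RNA were read beside a background of 28.8% higher and 24.6% lower over all features, and of 33.2% higher and 23.9% lower among protein-coding genes. Of 24 tested genes of the nuclear exosome and of RNA elimination, 17 were higher and 2 lower, at a median log2 fold change of 0.32. The exosome nuclease rrp6 averaged 136 ± 5.83 CPM in the deletion and 88.7 ± 14.6 CPM in WT (SD, n = 3 each). Its log2 fold change was 0.62 ± 0.10 (edgeR, adjusted p = 0.0012). The helicases mtr4 and mtl1 rose by 0.36 ± 0.05 and 0.47 ± 0.07 and the exosome subunit rrp46 by 0.54 ± 0.09.

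Of 17 genes of RNA interference and heterochromatin, 14 were higher and 1 lower (median 0.35). The called genes included ers1 (0.68 ± 0.09), the heterochromatin protein gene swi6 (0.52 ± 0.10) and arb2 of an Argonaute complex (0.84 ± 0.16), whereas ago1 itself was lower, at -0.21 ± 0.05. Of 25 genes of chromatin control of cryptic transcription, 16 were higher and 2 lower (median 0.26). Among them were hrp3 (0.59 ± 0.07), the paralog of hrp1, pst1 of a Clr6 histone deacetylase complex (0.38 ± 0.05) and hip1 of the HIRA histone chaperone (0.46 ± 0.07).

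Cytoplasmic decay and nonsense-mediated decay had 8 higher and 3 lower of 18 (median 0.07). The deadenylase complex gene not3 rose by 0.48 ± 0.07, and ski2 and ski3 of the Ski complex by 0.45 ± 0.08 and 0.42 ± 0.09, while the helicase gene ste13 fell by 0.26 on the log2 scale. Cleavage, polyadenylation and termination had 10 higher and 1 lower of 22 (median 0.05). The phosphatase gene ssu72 rose by 0.93 ± 0.11, msi2 by 0.65 ± 0.06 and the elongation factor gene tfs1 by 0.50 ± 0.08, and the phosphatase gene dis2 fell by 0.38. With cyclic loess scaling, which removes a trend with level, the counts of higher and lower genes in the 5 lists, in the order given, were 10 and 3, 6 and 1, 13 and 4, 4 and 0, and 7 and 3, beside 1317 and 1442 over all 6045 features. DESeq2 called 8 higher and 6 lower in the cytoplasmic list.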

How the data were processed

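The authors deposited whole read counts for each feature. Build ASM294v2 and the tools HTSeq 0.10.0, HISAT2 2.1.0, DESeq, DESeq2 and SAMtools come from the submitters' processing notes, with no role for any, and no source used here gives the strand setting. A second deposited table of the authors holds, per the file headers, a log2 fold change with its standard error, a Wald statistic as test score, raw and adjusted p-values and, as signal, mean normalized counts of each group. Of 669 antisense RNAs with an adjusted p in the authors' deposited table, 47 were higher and 212 lower, and 230 of the 245 calls made here were also called there.

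One identifier on 2 lines was summed (6987 lines, 6986 features). The fit used edgeR 4.0.16 in R 4.3.3 with filterByExpr (minimum count 10), scaling by TMM, and a quasi-likelihood F test on group alone; p-values were adjusted over 6045 features by Benjamini-Hochberg. Each standard error is the log2 change over the root of its F value. The code was tested on simulated data. RefSeq ASM294v3 gave lengths, strands and neighbours only; as its build is not that of the notes, no coordinates or sequences are given. Levels were compared between genes per exon length.

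Members, pairs and the 5 gene lists were chosen with earlier results of these data known. Named members were the 10 largest rises and falls among called members averaging 50 counts or more with separate libraries, the 5 highest in level, the 6 pairs in each direction with the largest smaller change of the pair (both partners at 50 counts or more), up to 4 called genes per list and sense genes with several antisense RNAs. ago1 was named after its value was seen. One gene that the rule names is not reported here. Alternatives were DESeq2 1.42.0, limma-voom (limma 3.58.1), other scalings, filters and thresholds, pairing by RefSeq overlap, each library left out and the replicate number as a block. That number does not pair samples here.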

Additional observations from a re-analysis of the deposited data

How the results depend on the processing

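The counts of antisense RNAs called higher and lower, their median log2 fold change, and the counts of pairs called in the same and in opposite directions were 54, 191, -0.26, 29 and 116. With at least 10 CPM in 3 libraries, which tests fewer features, they were 32, 69, -0.13, 6 and 45. Over all 4877 features of that fit, 1637 were higher and 1274 lower. At an adjusted p below 0.01 the antisense and pair counts were 26, 110, 10 and 62, and the share over all features at that threshold is not given. Chosen after seeing the data, members at 10% or more of their sense partner gave 46, 94, -0.16, 16 and 70, and 38, 79, -0.14, 10 and 58 also without WT replicate 1. Leaving out each library in turn gave 1324 to 1763 higher and 1077 to 1384 lower over all features. For antisense RNAs and pairs it gave 36 to 52, 132 to 193, -0.32 to -0.18, 17 to 34 and 87 to 111. Under the other alternatives tried these values stayed within 1.5 times (counts) or 1 SD of the libraries' medians (log2 fold change); DESeq2 gave 41 higher and 185 lower.

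With total counts, calls over all features were 2073 higher and 1050 lower (66.4% higher, against 53.9%), and antisense calls were 61 and 163. Same-numbered libraries had correlations of their deviations of -0.13, -0.17 and 0.26, so they share only a number; the replicate block gave 59, 208, -0.26, 37 and 125.

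Of 35 named antisense RNAs, 28 kept their direction and side of the threshold under each alternative that gave a value, and of 29 partners 21 did. Log2 fold changes of features not called reversed with 1 library left out for SPAC56F8.12 (-1.44 to 0.33, which was without WT replicate 1), atd2 (-0.016 to 0.16) and SPCC330.04c-antisense-1 (-0.20 to 0.12), with cyclic loess for atd2 (-0.18) and pof9 (-0.14), and with total counts for rhp16 (0.0017). The cause was not tested. Members with few counts are limited by depth: 98 were not tested.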
